A study of Mus musculus with 3 samples.

Results

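The mitosis and G2/M set held 53 genes of the 18029 in the count table. They were a list of genes chosen by their known part in cell division, from late S phase to the separation of daughter cells, and each of the 53 was present in the table. The list was drawn up with earlier results of these data known, so the counts of members below do not come from a list blind to the data. Irradiated B6D2F1 mice had received B6 bone marrow, B6 T cells and a small number of TEa cells (T cells with 1 transgenic receptor for a recipient peptide), followed by saline, CSA 5 mg/kg or CSA 50 mg/kg each day from day 0 to day 6. CSA is cyclosporine, a calcineurin inhibitor given against graft-versus-host disease. Spleens were removed on day 7 from 6 mice per group and combined 2 by 2 into 3 pools per group, and sorted CD4+ and CD8+ T cells of the pools were mixed for a droplet capture that counts transcripts from their 5' end. The 3 hashtagged pools of a group shared 1 capture, so capture and dose cannot be told apart, while the CD4+ and CD8+ cells of a pool shared both mice and capture. P-values therefore measured the spread between pools of 2 mice within captures.

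Mitosis is started by Cdk1 bound to A-type and B-type cyclins, and is driven onward by the Polo and Aurora kinases. Motors and microtubule proteins build the spindle, kinetochores tie chromosomes to it, and checkpoint kinases hold back the anaphase-promoting complex until every chromosome is attached. Most of these genes are silent in resting T cells, are held off by the DREAM complex outside the cycle and switched on together in G2 and M phase by MYB-MuvB and FOXM1, and are used to mark T cells that divide in response to antigen.

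The pools held 692 to 1615 cells and 3994968 to 11454636 UMIs (unique transcript molecules) per lineage after the TEa cells were left out. The median UMIs per cell rose with dose, from 2966 to 3174 in saline to 5794 to 6300 at CSA 50 mg/kg in CD4+ cells and from 4026 to 4254 to 6656 to 8065 in CD8+ cells. The T cell markers made up 47.9 ± 0.591 of 10000 UMIs in saline CD4+ cells (mean ± SD, n = 3 pools) and 54.7 ± 0.410 in saline CD8+ cells, against 2.02 ± 0.111 for B cell, 0.567 ± 0.129 for erythroid and 1.72 ± 0.159 for myeloid markers in the latter. At CSA 50 mg/kg the B cell markers stood at 6.47 ± 0.964 and the T cell markers at 77.4 ± 2.73 per 10000 in CD8+ cells; their part in the values below was not tested. Pools of a group differed from each other by a chi-square of 1.502 to 3.24 per degree of freedom, except that CD8+ cells of CSA 50 mg/kg pool 3 differed from pools 1 and 2 by 5.51 and 4.56.

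Promoter windows of 4 members are shown because these genes stood at the ends of the dose response described further on, Ccnb2 and Cks2 among the largest rises and Mki67 and Bub1 among the largest falls. Each window runs 5' to 3' on the gene's strand from 250 bases before to 50 bases after the RefSeq start on GRCm38.p6, and capitals mark CCAAT (or ATTGG, the same box on the other strand), TTTGAA and TTCGAA. The last 2 are forms of the cell cycle genes homology region, the element read by DREAM and MYB-MuvB, and CCAAT is the box bound by NF-Y. Ccnb2 (cyclin B2) lies at chr9:70421505-70421804 on the minus strand, Cks2 (a small Cdk-binding subunit) at chr13:51644982-51645281 on the plus strand, Mki67 (the Ki-67 protein that coats mitotic chromosomes) at chr7:135716330-135716629 on the minus strand and Bub1 (a spindle checkpoint kinase) at chr2:127831810-127832109 on the minus strand.
Ccnb2: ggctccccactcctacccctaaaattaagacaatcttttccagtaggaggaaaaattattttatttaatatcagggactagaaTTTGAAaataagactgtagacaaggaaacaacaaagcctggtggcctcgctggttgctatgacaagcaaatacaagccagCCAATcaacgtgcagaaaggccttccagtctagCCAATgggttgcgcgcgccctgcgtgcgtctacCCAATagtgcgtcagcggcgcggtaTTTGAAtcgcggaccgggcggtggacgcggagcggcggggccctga
Cks2: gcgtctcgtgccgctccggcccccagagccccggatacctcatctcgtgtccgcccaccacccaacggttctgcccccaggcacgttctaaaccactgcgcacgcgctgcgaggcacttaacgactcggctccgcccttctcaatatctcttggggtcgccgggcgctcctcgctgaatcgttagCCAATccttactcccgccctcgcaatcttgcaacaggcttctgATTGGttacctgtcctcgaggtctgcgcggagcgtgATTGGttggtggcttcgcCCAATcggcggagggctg
Mki67: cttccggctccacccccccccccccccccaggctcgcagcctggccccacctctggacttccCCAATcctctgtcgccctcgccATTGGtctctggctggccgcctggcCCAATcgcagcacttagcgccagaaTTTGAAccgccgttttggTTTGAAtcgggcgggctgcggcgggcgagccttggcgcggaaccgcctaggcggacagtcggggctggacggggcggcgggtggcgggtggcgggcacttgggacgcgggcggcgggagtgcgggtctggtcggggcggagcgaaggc
Bub1: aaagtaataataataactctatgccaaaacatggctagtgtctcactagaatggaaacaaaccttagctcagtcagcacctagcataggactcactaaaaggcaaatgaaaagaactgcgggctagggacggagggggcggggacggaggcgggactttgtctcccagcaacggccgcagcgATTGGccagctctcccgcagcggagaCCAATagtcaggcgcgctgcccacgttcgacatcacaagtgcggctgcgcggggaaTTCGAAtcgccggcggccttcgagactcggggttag

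The Mki67 window carried TTTGAA 2 times and the CCAAT box 3 times, Ccnb2 carried the same numbers, Bub1 carried TTCGAA 1 time and CCAAT 2 times, and the Cks2 window held 4 CCAAT boxes and neither TTTGAA nor TTCGAA. RefSeq windows were found for 45 of the 53 members. On either strand, TTTGAA was present in 34 of the 45 (75.6%) and in 18.1% of all 27025 windows, CCAAT in 35 (77.8%) and in 37.8%, and TTCGAA in 4 (8.89%) and in 1.52%. TTTGAA or TTCGAA was present in 36 member windows (80.00%) against 19.4% of all windows. Among members that rose in both lineages at CSA 50 mg/kg, 5 of 8 windows held TTTGAA, and among those that fell in both, 16 of 20 did.

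Added up as shares of all UMIs, the 53 genes were highest in CD8+ cells of saline mice and lower at both doses of CSA in both lineages. In CD8+ cells they gave 126, 126 and 121 of every 10000 UMIs in the saline pools, 85.8, 87.3 and 89.9 at CSA 5 mg/kg and 70.7, 62.6 and 77.3 at CSA 50 mg/kg. The CD8+ pools of the 3 groups did not overlap. In CD4+ cells the sums were 77.7, 85.7 and 82.2 in saline, 63.9, 61.7 and 58.9 at CSA 5 mg/kg and 70.9, 66.97 and 66.3 at CSA 50 mg/kg. Saline CD4+ pools lay above every CSA pool, and the low dose lay below the high dose. The means were 124 ± 2.55, 87.6 ± 2.08 and 70.2 ± 7.34 per 10000 in CD8+ cells and 81.9 ± 4.02, 61.5 ± 2.497 and 68.1 ± 2.52 in CD4+ cells (mean ± SD, n = 3). Hmgb2, Mki67, Top2a, Ube2c and Birc5 held 45.1% of the members' UMIs in CD4+ cells and 45.1% in CD8+ cells, and without them the sums were 71.7 ± 1.48, 46.5 ± 1.12 and 37.03 ± 4.04 in CD8+ cells. In these sums alone, fewer dividing cells and less mitotic RNA per dividing cell cannot be told apart. On this scale the median change over all genes at CSA 50 mg/kg was -0.45 in CD4+ and -0.53 in CD8+ cells (log2). The tests further on also scale each pool by a TMM factor, which was 1.197 to 1.205 in saline CD4+ pools and 0.884 to 0.889 at CSA 50 mg/kg. The order of the CD4+ groups therefore depends on the scaling.

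**Figure D1:**
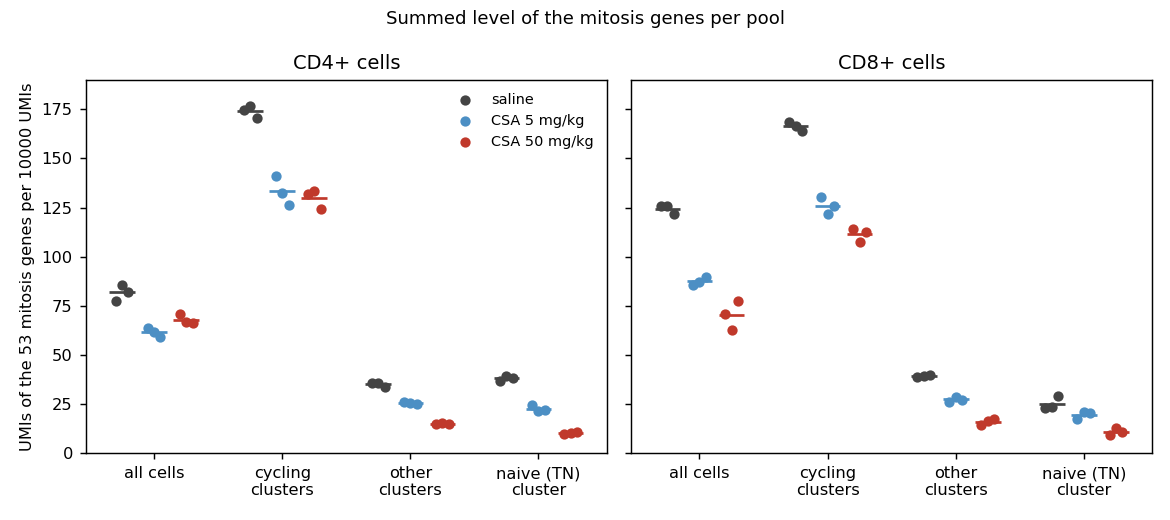
Summed level of the 53 mitosis genes, as UMIs per 10000 UMIs (y axis), in all cells, the cycling clusters, the other clusters and the naive (TN) cluster of CD4+ cells (left) and CD8+ cells (right). Points are pools, bars are means of 3 pools, and colours are saline, CSA 5 mg/kg and CSA 50 mg/kg; CD8+ cells fell from 124 in saline to 70.2 at CSA 50 mg/kg, and the naive cluster fell along with the other clusters outside the cycle.

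The 3 clusters that the study calls cycling held most of this RNA. Within them the sum was 174 ± 3.26, 133 ± 7.51 and 129.9 ± 4.83 per 10000 in CD4+ cells and 166 ± 2.32, 126 ± 4.32 and 112 ± 3.46 in CD8+ cells, in the order saline, CSA 5 mg/kg and CSA 50 mg/kg. The size of these falls depends on the scaling. TMM factors within these clusters were 1.208 to 1.215 in saline and 0.878 to 0.886 at CSA 50 mg/kg in CD4+ cells. In CD8+ cells they were 1.245 to 1.258 and 0.847 to 0.871. Without them the median change over all genes at CSA 50 mg/kg was -0.48 in CD4+ and -0.54 in CD8+ cycling cells. Of all cells, these clusters held 21.7 ± 2.17%, 23.1 ± 0.400% and 33.1 ± 1.99% in the CD4+ and 53.3 ± 0.993%, 49.3 ± 3.98% and 45.1 ± 6.94% in the CD8+ lineage, which is a description, since the clusters were drawn from the same counts. The share of CD4+ cells in them was thus highest at CSA 50 mg/kg, where the CD4+ sum over all cells was below saline on the scale of all UMIs. The CD8+ pools at that dose overlapped saline in their share of cells in these clusters. Saline cycling cells of the 2 lineages lay close together, while the sums over all cells did not. Outside these clusters the members gave 35.1 ± 1.16, 25.7 ± 0.582 and 15.2 ± 0.251 per 10000 in CD4+ cells and 39.5 ± 0.653, 27.4 ± 1.37 and 16.1 ± 1.702 in CD8+ cells. The cluster that the study names naive T cells (TN) stood at 38.3 ± 1.24, 22.8 ± 1.497 and 10.3 ± 0.563 per 10000 in CD4+ cells and at 25.2 ± 3.36, 19.7 ± 1.97 and 11.1 ± 1.65 in CD8+ cells. The level in this naive cluster thus fell with dose. Whether it came from free RNA or from cells that divided in the irradiated recipients was not tested. The part of free RNA in the values of the other clusters was not tested either.

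Counted per cell, at 2000 UMIs from each cell, 63.2 ± 0.333% of CD8+ cells carried 10 or more member UMIs in saline, 48.4 ± 3.14% at CSA 5 mg/kg and 35.4 ± 5.93% at CSA 50 mg/kg. For CD4+ cells the shares were 38.3 ± 0.0837%, 26.95 ± 0.766% and 28.2 ± 0.855%. Before thinning they were 82.2 ± 0.631%, 79.96 ± 3.53% and 59.6 ± 7.92% of CD8+ cells and 64.3 ± 0.529%, 61.3 ± 0.986% and 49.8 ± 1.22% of CD4+ cells. The CD4+ difference depended on the limit. At 20 or more member UMIs after thinning, CD4+ pools overlapped, at 15.2, 17.1 and 18.1% in saline and 17.8, 16.95 and 18.5% at CSA 50 mg/kg. At 10 or more, CD4+ cycling clusters gave 92.8, 92.4 and 91.2% in saline and 76.4, 82.5 and 80.9% at CSA 50 mg/kg. The other CD4+ clusters gave 23.2, 21.2 and 19.98% and 1.91, 2.51 and 2.06%. Naive cells gave 11 of 54 thinned CD4+ cells in saline (20.4%, exact binomial 95% interval 10.6 to 33.5%), 4 of 96 at CSA 5 mg/kg (4.17%, 1.15 to 10.3%) and 0 of 83 at CSA 50 mg/kg, which allows up to 3.61% by a limit of 3 counts and up to 4.35% by the exact binomial interval. Naive CD8+ cells gave 8 of 110 in saline (7.27%, 3.19 to 13.8%) and 3 of 161 at CSA 50 mg/kg (1.86%, 0.386 to 5.35%). These intervals cover counting error only. Naive cells had median UMIs of 1941 to 2035 (CD4+) and 3454 to 3652 (CD8+) in the saline pools, below the medians over all cells. Cells under 2000 UMIs, which were left out, numbered 395, 452 and 80 CD4+ and 121, 83 and 8 CD8+ cells in saline, CSA 5 mg/kg and CSA 50 mg/kg. Of the naive CD4+ cells, 56 of 110 were left out in saline, 9 of 105 at CSA 5 mg/kg and 11 of 94 at CSA 50 mg/kg. The saline share of naive CD4+ cells thus rests on those with more UMIs, and the doses compare unlike parts of the cluster.

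The comparison of CD8+ with CD4+ cells asked how the members differed between lineages of the same mice. In saline, 52 of 53 members were higher in CD8+ cells and 0 lower by edgeR's quasi-likelihood test with pool as a block and Benjamini-Hochberg adjustment over 10358 genes, where 21.8% of all genes were higher and 19.4% lower. The median member difference was 0.67 on the log2 scale, against 0.01 over all genes tested. Over the 9 pools together, 52 members were higher and 0 lower (background 27.5% and 25.6%), with a median of 0.45. Psrc1, a spindle protein of few UMIs, was the member without a call in both.

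At CSA 50 mg/kg the lineage difference was small. There, 13 of 53 members were higher in CD8+ cells and 0 lower (background 16.7% and 14.3%), with a median of 0.09. The test of the change in the difference itself, the interaction of lineage with CSA 50 mg/kg, called 50 members lower and 0 higher (background 11% lower and 9.83% higher), with a median of -0.57. At CSA 5 mg/kg the interaction called 0 members higher and 0 lower by edgeR's quasi-likelihood test (background 2.46% and 1.62%), 0 higher and 0 lower by DESeq2, with a median of -0.13. At an unadjusted p under 0.05 by edgeR there were 10 members, beside 1729 of all 10358 genes tested. The 13 calls at CSA 50 mg/kg alone rested on single pools: they became 4 without CSA 50 mg/kg pool 3 and 22 without CSA 50 mg/kg pool 2.

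Mki67 was higher in CD8+ cells of saline mice and not at the high dose. With both lineages normalised jointly (CPM, UMIs per 1000000 UMIs after TMM scaling), saline pools stood at 1039, 1059.6 and 987 CPM in CD8+ cells and 562, 639 and 601 in CD4+ cells, and CSA 50 mg/kg pools at 272, 241 and 303 and 273, 242 and 279. Every saline pool was higher in CD8+ cells, whereas at CSA 50 mg/kg the lineages overlapped. The difference was 0.78 ± 0.07 in saline (log2, SE, adjusted p = 1.2e-09 by edgeR) and 0.04 ± 0.08 at CSA 50 mg/kg (adjusted p = 0.77), and the interaction was -0.74 ± 0.11 (adjusted p = 1.2e-05). For Top2a, the topoisomerase that untangles sister chromatids, the saline pools stood at 618, 613 and 584 CPM in CD8+ and 371, 396 and 364 in CD4+ cells, and the CSA 50 mg/kg pools at 285, 254 and 276 and 293, 266 and 267. Its interaction was -0.70 ± 0.06 (adjusted p = 4.8e-09 by edgeR). For Bub1 the interaction was -0.93 ± 0.13, for Plk1 -0.65 ± 0.11, for Kif11 -0.68 ± 0.08 and for Ccnb1 -0.54 ± 0.11, all below 0 and past the threshold. Hmgb2, a chromatin protein found also outside mitosis, was at 2215, 2125 and 2118 CPM in saline CD8+ and 1446, 1472 and 1495 in saline CD4+ cells, a smaller gap of 0.55 ± 0.04. Its interaction was -0.38 ± 0.06 (adjusted p = 1.8e-05 by edgeR).

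**Figure D2:**
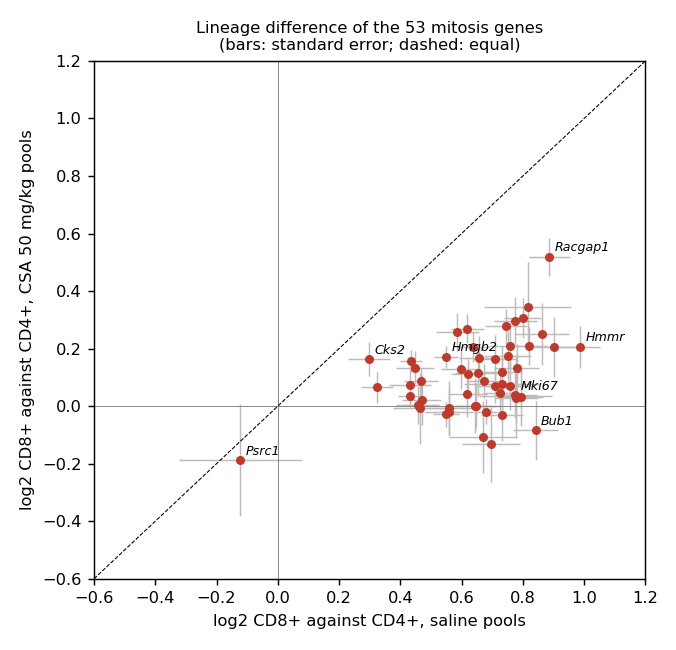
Log2 difference of CD8+ from CD4+ cells for each of the 53 members in saline pools (x axis) and in CSA 50 mg/kg pools (y axis), with standard errors; the dashed line marks equal values. Members lie around 0.67 on the x axis and around 0.09 on the y axis, most of them below the dashed line.

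Against saline, most members were lower under CSA in CD8+ cells, and members went both ways in CD4+ cells. In CD8+ cells 8 of 53 members rose and 40 fell at CSA 50 mg/kg (edgeR's quasi-likelihood test, adjusted p under 0.05, with all 53 past the filter on low counts), while 37.1% of the 10841 genes tested rose and 36.9% fell. The median member change was -0.75 on the log2 scale. At CSA 5 mg/kg, 10 rose and 34 fell (background 29.9% and 30.3%), with a median of -0.40. Without CSA 50 mg/kg pool 3, 6 rose and 42 fell at CSA 50 mg/kg. From CSA 5 mg/kg to CSA 50 mg/kg, 0 CD8+ members rose and 37 fell (background 20% and 21.0%).

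In CD4+ cells 14 members rose and 24 fell at CSA 50 mg/kg (background 34.7% and 35.8% of 10568 genes), with a median of -0.13. At CSA 5 mg/kg, 7 rose and 30 fell (background 26.1% and 25.6%), with a median of -0.27. From the low to the high dose 19 rose and 3 fell (background 19.9% and 21.3%), and the 3 that fell were Mki67, Hjurp and Ckap5. Between these doses 11 members rose and 10 fell within the CD4+ cycling clusters (background 12% and 14.4%), and 1 rose and 48 fell in CD4+ cells outside them (background 17.5% and 19.1%). Comparisons against saline share the saline pools. Leaving out CSA 5 mg/kg pool 3 or CSA 50 mg/kg pool 1 raised the 3 CD4+ falls between doses to 6, and leaving out CSA 50 mg/kg pool 2 gave 3 CD8+ rises in place of 0.

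These counts depended on how pools were scaled. TMM factors were 1.197 to 1.248 in saline, 0.92 to 0.95 at CSA 5 mg/kg and 0.86 to 0.89 at CSA 50 mg/kg, and with library-size scaling the median over all genes moved to -0.37 and -0.45 in CD4+ cells and to -0.43 and -0.53 in CD8+ cells, for the low and the high dose against saline. Under that scaling CD8+ members numbered 2 higher and 44 lower at CSA 5 mg/kg, 1 and 47 at CSA 50 mg/kg, and 0 and 42 between doses, while 10.9% and 57.8%, 15.6% and 62.7%, and 12.1% and 30.6% of all genes were higher and lower. CD4+ members numbered 1 higher and 47 lower at CSA 5 mg/kg, 7 and 41 at CSA 50 mg/kg, and 16 and 9 between doses, beside 8.76% and 54.1%, 15.1% and 59.0%, and 13.5% and 27.2% of all genes. The lineage counts in saline, over all pools and for the interaction with CSA 50 mg/kg were the same under both scalings.

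**Figure D3:**
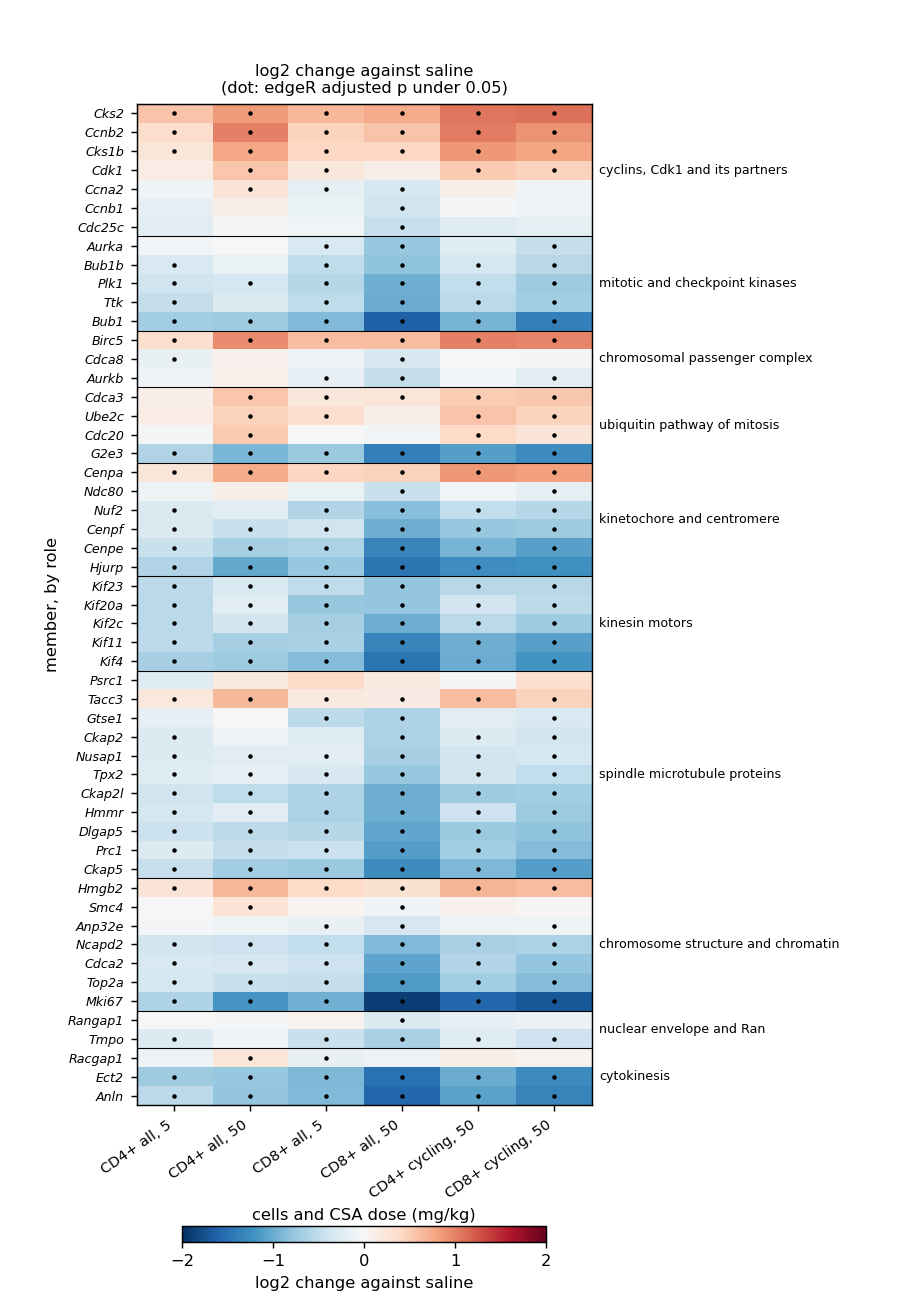
Log2 change against saline (colour) for the 53 members (rows, by role) in all CD4+ and CD8+ cells at CSA 5 and 50 mg/kg and in the cycling clusters at CSA 50 mg/kg (columns); dots mark an adjusted p under 0.05 in edgeR. In CD8+ cells at CSA 50 mg/kg, 40 rows were lower and 8 higher, and Cks2, Ccnb2, Birc5 and Cenpa were higher in all 6 columns.

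Of the 7 members around Cdk1, 5 rose and 0 fell in CD4+ cells at CSA 50 mg/kg, against 3 and 3 in CD8+ cells. The counts by role at this dose, here and below, stand beside all genes tested. Of these, 34.7% rose and 35.8% fell in CD4+ cells, and 37.1% and 36.9% in CD8+ cells. Ccnb2 was at 96.4, 111 and 101 CPM in the saline pools, 136, 125 and 132 at CSA 5 mg/kg and 219, 197 and 205 at CSA 50 mg/kg in CD4+ cells, 3 groups that rose in order with no overlap. In CD8+ cells it was at 166, 169.7 and 157 CPM in the saline pools, 224, 230.2 and 217 at CSA 5 mg/kg and 233, 201 and 293 at CSA 50 mg/kg. There both CSA groups lay above saline and overlapped each other. The changes at CSA 50 mg/kg were 1.002 ± 0.06 in CD4+ (log2, SE, adjusted p = 1.3e-12 by edgeR) and 0.57 ± 0.09 in CD8+ cells (adjusted p = 1.7e-05). Cks2 was at 141, 137 and 144 CPM in the saline pools, 225, 224 and 219 at CSA 5 mg/kg and 237, 204 and 260.4 at CSA 50 mg/kg in CD8+ cells and rose by 0.74 (adjusted p = 9.7e-09 by edgeR), the largest CD8+ rise, with 0.85 in CD4+ cells. Its relative Cks1b rose by 0.78 in CD4+ and 0.42 in CD8+ cells, the latter below 0 with library-size scaling. Cdk1 itself was at 79.4, 78.01 and 74.3 CPM in the saline pools, 87.3, 85.6 and 84.7 at CSA 5 mg/kg and 135, 105 and 99.6 at CSA 50 mg/kg in CD4+ cells and at 99.9, 104 and 97.9 CPM in the saline pools, 123, 116 and 115 at CSA 5 mg/kg and 108, 98.8 and 118 at CSA 50 mg/kg in CD8+ cells. It rose in CD4+ cells (0.55 ± 0.08, adjusted p = 4.8e-06 by edgeR), while its CD8+ pools at CSA 50 mg/kg overlapped saline (0.11 ± 0.06, adjusted p = 0.098).

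Ccna2, cyclin A2, was the one cyclin called in opposite directions. It was at 129, 147 and 132 CPM in the saline pools, 137, 125 and 124 at CSA 5 mg/kg and 171, 163 and 156 at CSA 50 mg/kg in CD4+ cells and at 213, 218 and 203 CPM in the saline pools, 187, 183 and 187 at CSA 5 mg/kg and 160.2, 144 and 191 at CSA 50 mg/kg in CD8+ cells. At CSA 50 mg/kg the CD4+ pools lay above and the CD8+ pools below their saline pools. The change was 0.26 ± 0.06 in CD4+ (adjusted p = 0.00037 by edgeR, and below 0 with library-size scaling) and -0.35 ± 0.07 in CD8+ cells (adjusted p = 0.0002), and the interaction with lineage was -0.64 ± 0.08 (adjusted p = 4.4e-06). Ccnb1, cyclin B1, fell in CD8+ cells (-0.40 ± 0.09, adjusted p = 0.0008) and stood at 0.11 ± 0.07 in CD4+ cells (adjusted p = 0.15 by edgeR). Cdc25c, the phosphatase that frees Cdk1 for mitotic entry, was at -0.47 (adjusted p = 0.003 by edgeR) in CD8+ and -0.03 (adjusted p = 0.89) in CD4+ cells.

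Of the 5 mitotic and checkpoint kinases, 5 fell at CSA 5 mg/kg and 5 at CSA 50 mg/kg in CD8+ cells, and 4 and 2 in CD4+ cells. Of all genes tested, 30.3% and 36.9% fell in CD8+ cells and 25.6% and 35.8% in CD4+ cells. Bub1 was at 54.3, 63.8 and 54.5 CPM in the saline pools, 28.6, 32.9 and 31.5 at CSA 5 mg/kg and 18.4, 16.9 and 20.8 at CSA 50 mg/kg in CD8+ cells, 3 groups that fell in order without overlap. In CD4+ cells it was at 31.4, 36.3 and 33.6 CPM in the saline pools, 20.9, 20.8 and 20.9 at CSA 5 mg/kg and 25.5, 16.9 and 20.2 at CSA 50 mg/kg, where both CSA groups lay below saline and overlapped. Its changes at CSA 50 mg/kg were -1.61 ± 0.09 (adjusted p = 2.5e-11 by edgeR) and -0.71 ± 0.11 (adjusted p = 1.1e-05). Plk1, the Polo-like kinase of mitotic entry and spindle assembly, was at 155, 159 and 153 CPM in the saline pools, 108, 102 and 105 at CSA 5 mg/kg and 78.6, 65.5 and 91.5 at CSA 50 mg/kg in CD8+ cells and fell by 0.98 on the log2 scale (adjusted p = 2.6e-09 by edgeR). In CD4+ cells it fell by 0.35 (adjusted p = 0.00046 by edgeR). Aurka, the centrosome kinase, fell in CD8+ cells (-0.76 ± 0.09) but showed 0.00 ± 0.14 in CD4+ cells (adjusted p = 0.99 by edgeR), where its pools overlapped in all groups. Ttk and Bub1b, both checkpoint kinases of the kinetochore, stood at -0.996 and -0.80 in CD8+ and at -0.28 and -0.13 in CD4+ cells, the CD4+ values short of the threshold.

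In the chromosomal passenger complex, which corrects faulty attachments and guides cytokinesis, Birc5 parted from its partners. Birc5 (survivin) was at 172, 184 and 175 CPM in the saline pools, 239, 211 and 223 at CSA 5 mg/kg and 363, 328 and 331 at CSA 50 mg/kg in CD4+ cells and at 259.7, 256 and 259 CPM in the saline pools, 390, 399.9 and 396 at CSA 5 mg/kg and 400.3, 339.6 and 447 at CSA 50 mg/kg in CD8+ cells. Every CSA pool lay above every saline pool in both lineages. The changes at CSA 50 mg/kg were 0.94 ± 0.05 (adjusted p = 6.5e-13 by edgeR) and 0.62 ± 0.07 (adjusted p = 1.5e-07). Aurkb, the kinase of the complex, and Cdca8 (borealin) fell in CD8+ cells, by 0.47 and 0.32 on the log2 scale, and stood at 0.10 (adjusted p = 0.21 by edgeR) and 0.09 (adjusted p = 0.16) in CD4+ cells. Among the 4 genes of the mitotic ubiquitin pathway, 1 of 4 rose and 1 fell in CD8+ cells at CSA 50 mg/kg, and 3 rose and 1 fell in CD4+ cells. Ube2c, the ubiquitin-conjugating enzyme of the anaphase-promoting complex, rose in CD4+ cells (0.46 ± 0.07, adjusted p = 2.9e-06 by edgeR) and was at 0.12 ± 0.07 in CD8+ cells (adjusted p = 0.1). Cdc20, its activator, was at 61.4, 71.2 and 72.04 CPM in the saline pools, 63.00, 62.1 and 74.5 at CSA 5 mg/kg and 102, 92.95 and 102 at CSA 50 mg/kg in CD4+ cells. Its high-dose pools stood above saline and the low-dose pools overlapped it (0.53 ± 0.07, adjusted p = 1.6e-06 by edgeR), and the CD8+ value was -0.06 ± 0.10 (adjusted p = 0.62). G2e3, a ubiquitin ligase of G2 and M phase, was among the 3 largest CD4+ falls, from 24.3, 30.1 and 35.6 CPM in saline to 17.4, 16.02 and 15.1 at CSA 50 mg/kg (-0.91 ± 0.13, adjusted p = 1.9e-06 by edgeR). Its CD8+ change was -1.36.

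At the kinetochore and centromere, 1 of 6 rose and 5 fell in CD8+ cells at CSA 50 mg/kg, and 1 rose and 3 fell in CD4+ cells. Cenpa, the histone that marks centromeres, rose in both. It was at 231, 246 and 237 CPM in the saline pools, 317, 328 and 313 at CSA 5 mg/kg and 313, 272 and 398 at CSA 50 mg/kg in CD8+ cells, with both CSA groups above saline (0.47 ± 0.09 at CSA 50 mg/kg, adjusted p = 0.00011 by edgeR, and below 0 with library-size scaling). In CD4+ cells it rose by 0.75. Hjurp, the chaperone that deposits Cenpa, went the other way. It was at 75.6, 82.9 and 79.5 CPM in the saline pools, 60.4, 52.2 and 46.5 at CSA 5 mg/kg and 40.5, 37.4 and 39.4 at CSA 50 mg/kg in CD4+ cells and at 109, 109 and 96.3 CPM in the saline pools, 61.1, 57.2 and 66.9 at CSA 5 mg/kg and 39.9, 33.1 and 41.4 at CSA 50 mg/kg in CD8+ cells. The 3 groups fell in order without overlap in both lineages, with -1.02 ± 0.08 (adjusted p = 2.5e-10 by edgeR) and -1.45 ± 0.08 (adjusted p = 1.2e-11) at CSA 50 mg/kg. The longest annotated mRNA measures 4878 bases for Hjurp and 1466 for Cenpa, and changes went with mRNA length over all genes, as given further on. With that trend taken out, the CD8+ change of Cenpa was below 0. Cenpe, a kinetochore motor, was at 188, 180.4 and 171 CPM in the saline pools, 112, 111 and 123 at CSA 5 mg/kg and 74.3, 59.6 and 81.2 at CSA 50 mg/kg in CD8+ cells and fell by 1.32 (adjusted p = 4.6e-11 by edgeR). The CD4+ change was -0.66. Cenpf, a kinetochore scaffold, changed by -0.97 in CD8+ and -0.45 in CD4+ cells. Ndc80 and Nuf2, which grip the microtubule, fell in CD8+ cells (-0.44 and -0.85) and missed the threshold in CD4+ cells (0.12 and -0.23, adjusted p = 0.22 and 0.052 by edgeR).

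Of the 5 kinesin motors, 5 fell at both doses in both lineages. Of all genes tested, 30.3% and 36.9% fell in CD8+ and 25.6% and 35.8% in CD4+ cells, at CSA 5 and 50 mg/kg. The longest annotated mRNAs of the kinesins measure 2842 to 4983 bases. In CD4+ cells at CSA 50 mg/kg the median change of all genes was -0.05 at 2615 to 3575 bases and -0.36 at 3576 to 5000. Kif11, the motor that pushes spindle poles apart, was at 184, 195 and 178 CPM in the saline pools, 119, 113 and 121 at CSA 5 mg/kg and 71.8, 69.2 and 80.5 at CSA 50 mg/kg in CD8+ cells and at 110.2, 129 and 114 CPM in the saline pools, 84.9, 83.6 and 78.7 at CSA 5 mg/kg and 83.7, 65.1 and 75.2 at CSA 50 mg/kg in CD4+ cells. Saline lay above every CSA pool in both. The changes at CSA 50 mg/kg were -1.32 ± 0.06 (adjusted p = 5.4e-13 by edgeR) and -0.66 ± 0.08 (adjusted p = 1.1e-07). Kif4, a motor of chromosome arms, changed by -1.46 and -0.71 in CD8+ and CD4+ cells, and Kif2c, which takes microtubules apart, by -0.97 and -0.39. Kif20a and Kif23, both needed for the last cut between daughters, changed by -0.78 and -0.77 in CD8+ cells. In CD4+ cells Kif20a was at 40.8, 42.3 and 43.3 CPM in the saline pools, 29.7, 33.9 and 24.4 at CSA 5 mg/kg and 34.8, 37.2 and 36.1 at CSA 50 mg/kg. It was lowest at the low dose and intermediate at the high dose (-0.23 ± 0.09 against saline, adjusted p = 0.027 by edgeR), a call that was lost without saline pool 2 (-0.23) or 3 (-0.21) and without CSA 50 mg/kg pool 1 (-0.20) or 3 (-0.23). Of the 11 spindle microtubule proteins, 1 rose and 9 fell in CD8+ cells at CSA 50 mg/kg, and 1 rose and 7 fell in CD4+ cells. Tacc3, a clathrin partner on spindle fibres, was the one that rose, by 0.64 in CD4+ and 0.16 in CD8+ cells, the latter below 0 with library-size scaling and not called without saline pool 1 (0.14) or CSA 50 mg/kg pool 3 (0.10). Ckap5, the microtubule polymerase that it recruits, was at 98.03, 119.8 and 116 CPM in the saline pools, 91.4, 79.5 and 75.7 at CSA 5 mg/kg and 74.6, 63.4 and 68.8 at CSA 50 mg/kg in CD4+ cells and fell in order with no overlap (-0.70 ± 0.08, adjusted p = 8e-08 by edgeR). Its CD8+ change was -1.26. The longest annotated mRNA measures 6665 bases for Ckap5 and 2899 for Tacc3. Tpx2, which activates Aurka on the spindle, changed by -0.75 and -0.17, and Nusap1, a microtubule bundler, by -0.66 and -0.21 in CD8+ and CD4+ cells. In CD4+ cells the call of Tpx2 was lost without saline pool 2 (-0.11) or CSA 50 mg/kg pool 1 (-0.14), and that of Nusap1 without saline pool 2 (-0.17) or 3 (-0.19) or CSA 50 mg/kg pool 3 (-0.13).

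Mki67 showed the largest fall of all members in both lineages. It was at 1004, 1025 and 953 CPM in the saline pools, 478, 478 and 573 at CSA 5 mg/kg and 268, 238 and 298 at CSA 50 mg/kg in CD8+ cells, and at 572, 650.1 and 612 CPM in the saline pools, 456, 422 and 326 at CSA 5 mg/kg and 279, 248 and 286 at CSA 50 mg/kg in CD4+ cells. The 3 groups fell in order without overlap in each. The changes at CSA 50 mg/kg were -1.89 ± 0.07 (log2, SE, adjusted p = 1.1e-13 by edgeR) and -1.17 ± 0.08 (adjusted p = 3.7e-11). Top2a was at 597, 593 and 563 CPM in the saline pools, 420.1, 401 and 439.6 at CSA 5 mg/kg and 281, 250.3 and 271 at CSA 50 mg/kg in CD8+ cells, with -1.13 ± 0.05 in CD8+ (adjusted p = 3.3e-13 by edgeR) and -0.45 ± 0.05 in CD4+ cells (adjusted p = 3.9e-08). Hmgb2 rose in both lineages. It was at 1472, 1499 and 1522 CPM in the saline pools, 1765, 1798 and 1815 at CSA 5 mg/kg and 2447, 2327 and 2321 at CSA 50 mg/kg in CD4+ and at 2141, 2057 and 2044 CPM in the saline pools, 2661, 2792 and 2676 at CSA 5 mg/kg and 2571, 2295 and 2851 at CSA 50 mg/kg in CD8+ cells, where the CSA groups overlapped. The changes were 0.66 ± 0.03 (adjusted p = 7.8e-14 by edgeR) and 0.31 ± 0.05 (adjusted p = 6.6e-05), the latter below 0 with library-size scaling. Smc4, the core subunit of condensin, was the other member called in opposite directions. Its CD4+ pools were at 207, 239 and 219 CPM in the saline pools, 226, 222 and 213 at CSA 5 mg/kg and 274, 269 and 269 at CSA 50 mg/kg, and its CD8+ pools at 277, 294 and 282 CPM in the saline pools, 287, 292 and 307 at CSA 5 mg/kg and 266, 264 and 269 at CSA 50 mg/kg. High-dose pools lay above saline in CD4+ and below it in CD8+ cells, by 0.28 ± 0.05 (adjusted p = 2.5e-05 by edgeR) and -0.09 ± 0.04 (adjusted p = 0.046). The CD4+ change was below 0 with library-size scaling, and the CD8+ call was lost with DESeq2 and without saline pool 2 (-0.07) or 3 (-0.10) or CSA 50 mg/kg pool 1 (-0.09) or 2 (-0.08), and the lineage interaction was -0.40 ± 0.05 (adjusted p = 7.8e-06 by edgeR). Ncapd2, another condensin subunit, fell in both (-0.88 in CD8+ and -0.41 in CD4+ cells). Anp32e, a chaperone of the histone H2A.Z, was at -0.33 (adjusted p = 3.7e-05 by edgeR) and -0.08 (adjusted p = 0.15).

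Of the cytokinesis genes, Anln (anillin, which organises the contractile ring) was among the 3 largest CD8+ falls. It was at 39.9, 42.5 and 40.6 CPM in the saline pools, 18.00, 22.98 and 24.6 at CSA 5 mg/kg and 14.6, 12.6 and 14.1 at CSA 50 mg/kg in CD8+ cells, with -1.57 ± 0.10 at CSA 50 mg/kg (adjusted p = 1.1e-10 by edgeR) and -0.77 in CD4+ cells. Ect2, the exchange factor that switches on the ring, changed by -1.49 and -0.75 in CD8+ and CD4+ cells. Its partner Racgap1 was at 97.4, 103 and 96.3 CPM in the saline pools, 96.04, 102 and 82.02 at CSA 5 mg/kg and 116, 125 and 111 at CSA 50 mg/kg in CD4+ cells. High-dose pools stood above saline there (0.24 ± 0.07, adjusted p = 0.0031 by edgeR, and below 0 with library-size scaling), and the CD8+ value was -0.10 ± 0.06 (adjusted p = 0.14). At the nuclear envelope, Tmpo (a lamina protein) fell in CD8+ cells (-0.64 ± 0.04) and was at -0.09 ± 0.05 in CD4+ cells (adjusted p = 0.094 by edgeR), and Rangap1, the activator of the Ran switch, was at -0.28 (adjusted p = 0.00026 by edgeR) and -0.04 (adjusted p = 0.58). Across roles, 8 members rose in both lineages at CSA 50 mg/kg, namely Ccnb2, Cks1b, Cks2, Birc5, Cdca3, Cenpa, Tacc3 and Hmgb2, and 24 fell in both. Cdca3, an adaptor of mitotic entry, had 0.55 in CD4+ and 0.25 in CD8+ cells, the latter not called without saline pool 1 (0.23) or 2 (0.21) or CSA 50 mg/kg pool 3 (0.09). With library-size scaling Cks1b, Cenpa, Hmgb2, Cdca3 and Tacc3 were below 0 in CD8+ cells.

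Members that rose had shorter mRNAs than members that fell, and so had genes at large. At CSA 50 mg/kg the longest annotated mRNA had a median of 1753.5 bases among the 8 CD8+ members that rose and 3597 among the 40 that fell, and 2409.5 and 4225.5 bases among those that rose and fell in CD4+ cells. Cks2 measured 692 bases, Ccnb2 1531, Mki67 10061 and Cenpf 11130. Across all genes with a length, Pearson's r of log2 length with the change at CSA 50 mg/kg was -0.46 (Spearman's rho -0.60) over 10078 genes in CD4+ cells and -0.49 (rho -0.60) over 10257 in CD8+ cells, and across the 53 members it was -0.72 and -0.71. Genes within libraries are not independent replicates, and the 3 groups were also 3 captures. At CSA 5 mg/kg r over all genes was -0.65 and -0.66. In comparisons within captures it was 0.00 for CD8+ against CD4+ cells in saline and -0.09 (rho -0.18) at CSA 50 mg/kg. It was -0.06 for expanded against single CD4+ clonotypes and -0.01 for CD8+ clonotypes. For the interaction of lineage with CSA 5 and 50 mg/kg it was -0.27 and -0.13 over all genes and -0.51 and -0.44 over the members. Over the members the lineage difference in saline had an r of 0.32.

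Against genes of like length, at CSA 50 mg/kg CD4+ members lay near and CD8+ members below. In CD4+ cells the members' median change in 5 equal groups of genes by length, shortest to longest, was 0.76, 0.10, -0.08, -0.33 and -0.68, and that of all genes 0.61, 0.24, -0.05, -0.36 and -0.69. In CD8+ cells the members' medians were 0.44, -0.47, -0.62, -0.97 and -1.29, below 0.68, 0.26, -0.05, -0.37 and -0.74 for all genes in every group. At CSA 5 mg/kg the members' medians lay below those of all genes in every group in both lineages. In CD4+ cells they were 0.24, -0.11, -0.16, -0.36 and -0.45 against 0.45, 0.17, -0.05, -0.24 and -0.42 for all genes. With each pool's trend of level on length taken out as an offset, an alternative chosen after the data were seen, 5 CD8+ members rose and 41 fell at CSA 50 mg/kg (background 31.3% and 32.2%) and 7 and 30 at CSA 5 mg/kg (background 20.3% and 20.8%). In CD4+ cells 14 rose and 16 fell at CSA 50 mg/kg (background 28.3% and 28.5%), and 5 and 21 at CSA 5 mg/kg (background 15.6% and 14.1%). The rises of Cks2 in both lineages and of Cks1b and Cenpa in CD8+ cells turned to values below 0 under it, and the CD4+ falls of Cenpe, Cenpf, Top2a and Tpx2 to values above 0.

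**Figure D4:**
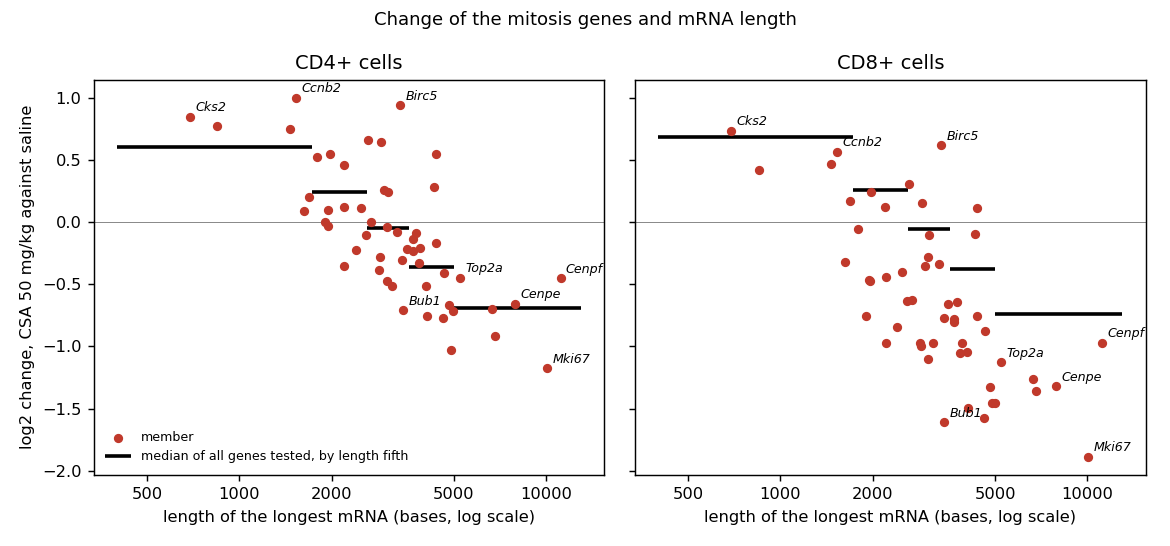
Log2 change at CSA 50 mg/kg against saline (y axis) and length of the longest mRNA in bases (x axis, log scale) for the 53 members (points) in CD4+ (left) and CD8+ cells (right); black bars are the medians of all genes tested in each of 5 equal groups by length. CD4+ members follow the bars, and most CD8+ members lie below them, as among the longest genes (-1.29 for members and -0.74 for all genes).

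Within the cycling clusters pooled, members again moved both ways. In CD8+ cycling cells 11 members rose and 34 fell at CSA 50 mg/kg (background 35.7% and 36.2%), and 10 rose and 29 fell at CSA 5 mg/kg (background 28.9% and 28.8%). In CD4+ cycling cells 11 rose and 29 fell at CSA 50 mg/kg (background 30.6% and 32.3%), and 10 and 28 at CSA 5 mg/kg (background 21.3% and 18.4%). Mki67 changed by -1.69 ± 0.05 in CD8+ (adjusted p = 4.5e-18 by edgeR) and -1.58 ± 0.08 in CD4+ cycling cells (adjusted p = 2.9e-15), and Cks2 by 1.10 ± 0.05 and 1.06 ± 0.07. Bub1 changed by -1.37 and -0.94, and Birc5 by 0.98 and 1.01. Ccna2, called in opposite directions over all cells, was at -0.06 in CD8+ (adjusted p = 0.27 by edgeR) and 0.12 in CD4+ cycling cells (adjusted p = 0.1), and Smc4 at 0.02 (adjusted p = 0.67) and 0.08 (adjusted p = 0.23). With library-size scaling the counts at CSA 50 mg/kg were 5 higher and 42 lower in CD8+ (background 15.5% and 61.4%) and 6 and 41 in CD4+ cycling cells (background 13.5% and 55.6%). Cells outside these clusters fell almost throughout, with 51 members lower and 1 higher in CD4+ cells (background 33.9% and 31.8%) and 51 and 0 in CD8+ cells (background 33.3% and 32.0%) at CSA 50 mg/kg, beside the fall in the naive cluster given above.

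The study's clusters were built from these same counts, so values across clusters are a description. In saline, the cycling cluster with high Cd226, a costimulatory receptor, held 52.1 ± 1.98% of the members' UMIs in CD8+ cells (C4) and 43.04 ± 2.301% in CD4+ cells (C6). At CSA 5 mg/kg these shares were 5.34 ± 0.328% and 11.9 ± 3.83%. At CSA 50 mg/kg no pool had 10 CD8+ cells in C4. The cycling cluster with low Cd226 held 20.2 ± 0.406%, 57.6 ± 2.23% and 54.98 ± 2.34% of the members' UMIs in CD8+ cells (C2) and 13.1 ± 2.85%, 41.6 ± 2.36% and 51.2 ± 1.48% in CD4+ cells (C3), from saline to CSA 50 mg/kg. The summed level per cluster moved less. In CD8+ C2 it was 114 ± 4.55, 118 ± 4.34 and 110.1 ± 3.94 per 10000, and in CD4+ C3 128 ± 3.49, 121 ± 6.33 and 125 ± 4.08. In the remaining cycling cluster it was 158 ± 6.71, 134 ± 6.08 and 110.4 ± 6.35 in CD8+ cells (C3) and 169.7 ± 21.01, 143 ± 10.3 and 136 ± 11.05 in CD4+ cells (C5). The high-Cd226 cluster had the highest level, 206 ± 3.97 in saline CD8+ and 197 ± 3.39 in saline CD4+ cells. In saline, 41 members peaked in C4 and 12 in C3 among CD8+ clusters, the latter including Ccnb2, Cks1b, Cks2, Birc5, Cdc20, Ube2c, Cenpa and Cenpf. Among CD4+ clusters 39 peaked in C6, 13 in C5 and Psrc1 in the naive cluster.

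**Figure D5:**
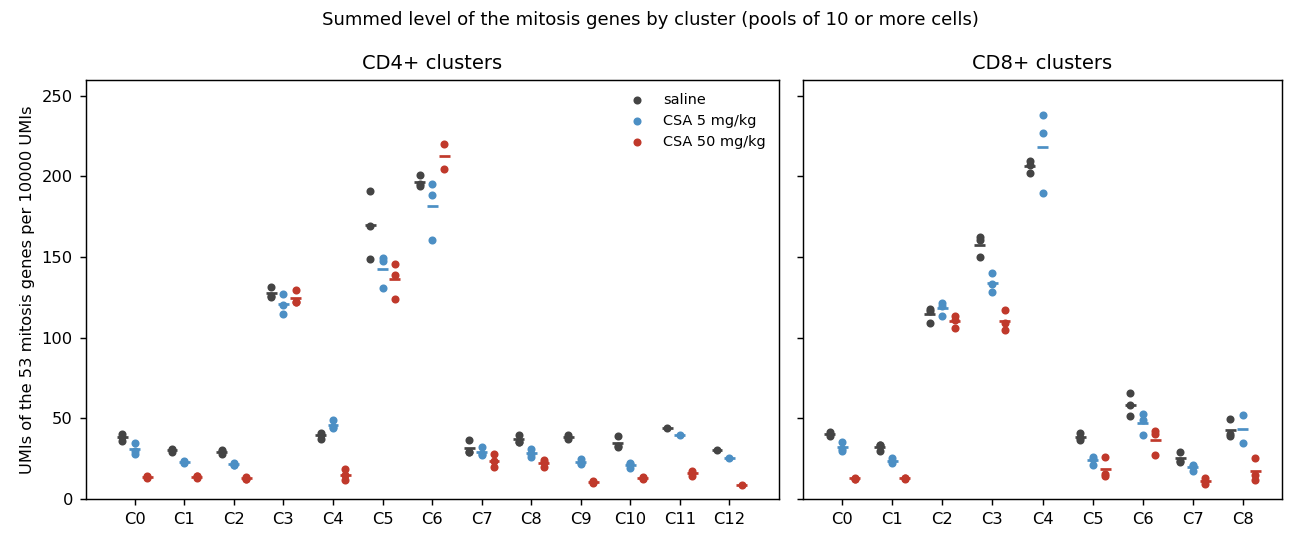
Summed level of the 53 members, as UMIs per 10000 UMIs (y axis), in each of the study's clusters (x axis) of CD4+ (left) and CD8+ cells (right); points are pools with 10 or more cells of the cluster, bars are their means, and colours are treatments. Cycling clusters are C3, C5 and C6 in CD4+ and C2, C3 and C4 in CD8+ cells, with 206 in saline C4, and all other clusters lie lower.

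Gene by gene within 1 cluster, CD8+ C2 gave more rises than falls, with 24 members higher and 7 lower at CSA 50 mg/kg (background 27.2% and 27.5%) and 29 and 1 at CSA 5 mg/kg (background 19.0% and 18.5%). With library-size scaling these became 9 and 20 at CSA 50 mg/kg (background 10.8% and 47.8%) and 10 and 9 at CSA 5 mg/kg (background 6.56% and 38.9%). The median member stood above the median of all genes under both scalings, at 0.22 and -0.15 against -0.0071 and -0.37 at CSA 50 mg/kg. The 7 falls became 3 without saline pool 2 and 4 without CSA 50 mg/kg pool 1 or 2. In CD8+ C3, 9 members rose and 31 fell at CSA 50 mg/kg (background 29.0% and 30.0%), and in CD4+ C5 11 rose and 24 fell of 51 that passed the filter (background 26.6% and 27.3%). In CD4+ C3, 8 rose and 3 fell (background 8.89% and 8.86%), numbers that became 5 rises without saline pool 3 and 1 fall without saline pool 2. In the high-Cd226 clusters few cells remained under CSA, and in CD4+ C6 at CSA 50 mg/kg, with 2 pools, 1 of 51 members rose and 0 fell by edgeR's quasi-likelihood test (background 1.64% and 1.24%), with no rise left without saline pool 2 or saline pool 3. At an unadjusted p under 0.05 by edgeR there were 8 members in that fit, beside 755 of all 5074 genes tested. In CD8+ C4 at CSA 5 mg/kg, 3 rose and 1 fell (background 1.90% and 1.31%); the single fall was lost without any saline pool and became 2 without CSA 5 mg/kg pool 1. Mki67 in CD8+ C2 was at 755, 773 and 712 CPM in the saline pools, 589, 579.5 and 658 at CSA 5 mg/kg and 477, 451 and 507 at CSA 50 mg/kg. Its change there was -0.64 ± 0.06 (adjusted p = 2e-09 by edgeR), against -1.66 ± 0.08 in C3 (adjusted p = 1.8e-17).

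Clonotypes, read from the T cell receptor and not from these genes, gave another comparison within captures. Cells whose clonotype had 2 or more cells in the pool were compared with cells whose clonotype had 1, with pool as a block. In CD4+ cells 52 of 53 members were higher in expanded clonotypes and 0 lower (edgeR's quasi-likelihood test, background 9.97% and 8.83%), with a median of 0.54 on the log2 scale. In CD8+ cells 51 were higher and 0 lower (background 7.40% and 7.69%), with a median of 0.30. Mki67 averaged 577 ± 272 CPM in expanded and 391 ± 147 in single CD4+ clonotypes (SD over 9 pools of 3 treatments), higher in 9 of 9 pools (0.54 ± 0.05, adjusted p = 2.5e-08 by edgeR). In CD8+ cells the difference was 0.25 ± 0.04, in 8 of 9 pools. For Ccnb1 it was 0.65 ± 0.06 in CD4+ and 0.43 ± 0.05 in CD8+ cells, and for Bub1 0.55 ± 0.11 and 0.44 ± 0.07. The summed level was 109.9 ± 2.75 in expanded and 77.6 ± 6.04 per 10000 in single saline CD4+ clonotypes, 80.9 ± 8.01 and 57.7 ± 0.750 at CSA 5 mg/kg, and 89.1 ± 3.62 and 64.2 ± 0.140 at CSA 50 mg/kg. In CD8+ cells it was 143 ± 3.89 and 115 ± 3.32 in saline, 103 ± 8.55 and 84.1 ± 1.25 at CSA 5 mg/kg, and 82.9 ± 10.5 and 67.9 ± 7.01 at CSA 50 mg/kg. Restricted to cells of the cycling clusters, 1 CD4+ and 3 CD8+ members were higher in expanded clonotypes. The share of all genes called in that fit is not given here, so these counts cannot be set against genes at large.

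Other genes of division were counted in the same way, against 37.1% and 36.9% of all genes that rose and fell in CD8+ cells at CSA 50 mg/kg and 34.7% and 35.8% in CD4+ cells. Of 68 further mitosis genes, 21 rose and 42 fell in CD8+ cells at CSA 50 mg/kg, and 29 rose and 27 fell in CD4+ cells. Aspm, which orients the spindle, changed by -1.99 in CD8+ and -1.18 in CD4+ cells, and Cenpw, a small centromere protein, by 1.10 and 1.11. Of 46 DNA replication genes, 5 rose and 33 fell in CD8+ cells, and 18 rose and 10 fell in CD4+ cells. Among them Atad2, a chromatin reader, changed by -1.36 and -0.77, and Tyms, the thymidylate synthase, by 0.23 and 0.62. Their lineage interaction with CSA 50 mg/kg was lower for 54 of 68 and 42 of 46, with none higher in either list (background 11% lower and 9.83% higher). Of 14 tested CDK inhibitors and quiescence regulators (15 listed), 9 rose and 5 fell in CD8+ and 8 rose and 5 fell in CD4+ cells. Cdkn1a, the p21 inhibitor, changed by 0.94 in CD8+ and 0.72 in CD4+ cells, and Klf2, a factor of quiescent T cells, by 1.05 and 0.94. Rbl2, the pocket protein of the DREAM complex, changed by -1.49 and -1.14. Foxm1, which drives G2 and M genes, was at 30.7, 33.9 and 31.04 CPM in the saline pools, 18.7, 19.7 and 22.6 at CSA 5 mg/kg and 16.6, 13.3 and 19.1 at CSA 50 mg/kg in CD8+ cells and fell (-0.95 ± 0.11, adjusted p = 4.3e-07 by edgeR), and was at -0.34 ± 0.15 in CD4+ cells (adjusted p = 0.056). Mybl2, the MYB of MYB-MuvB, was at -0.89 ± 0.10 in CD8+ (adjusted p = 3.7e-07 by edgeR) and -0.16 ± 0.10 in CD4+ cells (adjusted p = 0.16).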

How the data were processed

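Single-cell libraries were made from the 5' end of transcripts with hashtag antibodies for pools and with T cell receptor enrichment, 1 capture per treatment. The authors aligned reads to mm10 with Cell Ranger (version not given in the sources used here), processed cells with Seurat 3.0.0 and deposited UMI counts per gene and cell, which were used as deposited. The deposited tables of cells gave each cell's hashtag, cluster, clonotype, UMI count and mitochondrial fraction, made by the authors, and no further cell filter was applied. Clusters bear the study's names; those of CD8+ cells were matched by their cell numbers. Cells from 2 hashtags can be doublets: 1080 cells had another hashtag at 0.5 or more of the strongest, and an alternative leaves them out. Captures shared 218 barcodes. The 280 TEa cells were left out. Counts were summed per pool and lineage (3 pools a group) and tested with edgeR 4.0.16 in R 4.3.3 (filterByExpr, TMM, quasi-likelihood, Benjamini-Hochberg over all genes tested); fits of doses held the 9 pools of a lineage, and fits of lineages and clonotypes had pool as a block. A call is an adjusted p under 0.05, and the standard error of a log2 change is its size divided by the square root of F. DESeq2 1.42.0, library-size scaling, no filter, left-out pools and others were alternatives. Scripts were tested on simulated data. Pool values are TMM-scaled CPM; summed levels are shares of all UMIs. Depth per pool was 3994968 to 11454636 UMIs, and intervals cover counting error only. Within clusters, pools under 10 cells were left out. Thinning to 2000 UMIs drew at random from each cell. The members and lists were chosen with earlier results of these data known. Pool values were given for genes fixed by role and for the 3 largest rises and falls per lineage; other members (such as Smc4, Kif4 and Tacc3) were named after their values were seen. From further lists the 2 largest rises and falls could be named, with Foxm1 and Mybl2. Lengths are of the longest protein-coding transcript in GENCODE (GRCm38), and promoters are RefSeq windows of 250 bases before and 50 after the start.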

Additional observations from a re-analysis of the deposited data

Results flagged for a closer look

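The change at CSA 50 mg/kg against saline was lower in CD8+ than in CD4+ cells for 50 members by the interaction term of edgeR's quasi-likelihood test. Ccna2 (interaction -0.64 ± 0.08 on the log2 scale) and Smc4 (-0.40 ± 0.05) were called higher in CD4+ cells and lower in CD8+ cells. Both CD4+ rises were below 0 with library-size scaling. The CD8+ call of Smc4 was lost with DESeq2 and in several fits with a pool left out, and its sign changed with the length trend taken out. Neither gene was called within the cycling clusters at CSA 50 mg/kg. The interaction compares lineages of the same pools, and across groups dose and capture cannot be told apart.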

How the results depend on the processing

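Scaling, mRNA length and the choice of cells mattered most, and captures cannot be told apart from doses. With library-size scaling, members higher and lower were 1 and 47 (CD4+, CSA 5 mg/kg), 7 and 41 (CD4+, CSA 50 mg/kg), 2 and 44 (CD8+, CSA 5 mg/kg) and 1 and 47 (CD8+, CSA 50 mg/kg), with 9 lower between doses in CD4+ cells. In cycling clusters the rises were then 4 and 6 in CD4+ (765 and 1241 of all 9194 genes) and 6 and 5 in CD8+ cells (1161 and 1572 of 10158) at CSA 5 and 50 mg/kg. Within clusters the counts at CSA 50 mg/kg were 2 and 6 in CD4+ C3, beside 332 and 1141 of all 7889 genes tested. There were 6 rises in CD4+ C5 (691 of 5958 genes), 0 in CD4+ C6 (67 of 5074) and 4 in CD8+ C3 (962 of 8034). In CD8+ C2 there were 10 and 9 at CSA 5 mg/kg (background 6.56% and 38.9%) and 9 and 20 at CSA 50 mg/kg (background 10.8% and 47.8%). The lineage difference at CSA 50 mg/kg had 4 higher and 2 lower (1025 and 2564 of all 10358 genes), and the interaction with CSA 5 mg/kg 3 lower (286 of 10358). Values that changed sign under it were Ccna2 -0.18, Racgap1 -0.20 and Smc4 -0.16 in CD4+ cells, Cks1b -0.11, Cenpa -0.065, Hmgb2 -0.22, Cdca3 -0.28 and Tacc3 -0.37 in CD8+ cells, Cdc20 -0.054 in cycling CD4+ cells and Cdk1 -0.084, Cdc20 -0.28, Ube2c -0.087, Cdca3 -0.00072 and Tacc3 -0.068 in cycling CD8+ cells (log2 change at CSA 50 mg/kg). For cells outside the cycling clusters the share of all genes called at CSA 5 mg/kg is not given here, so counts at that dose cannot be set against genes at large. In cells outside the cycling clusters, 0 and 11 CD4+ members were higher and lower at CSA 5 mg/kg, 1 and 51 at CSA 50 mg/kg and 1 and 48 between doses, and in CD8+ cells 1 and 8 at CSA 5 mg/kg and 0 rose at CSA 50 mg/kg. Signs changed there for Ccna2 -1.97, Ccnb2 -1.05, Cdk1 -1.69, Cks1b -0.97, Cks2 -0.49, Birc5 -1.43, Cdc20 -1.54, Ube2c -1.48, Cenpa -0.92, Hmgb2 -0.36, Racgap1 -0.60, Cdca3 -1.19 and Tacc3 -1.13 in CD4+ cells and for Ccnb2 -0.64, Cks1b -0.99, Cks2 -0.44, Birc5 -1.18, Cenpa -0.76, Hmgb2 -0.49, Cdca3 -0.65, Smc4 0.0016 and Tacc3 -1.07 in CD8+ cells. With the length trend taken out, chosen after seeing the data, 5 CD8+ members rose at CSA 50 mg/kg, and signs changed for Cks2 -0.019, Cenpe 0.064, Cenpf 0.41, Tpx2 0.16, Top2a 0.027 and Hmmr 0.030 in CD4+ cells, Cks1b -0.51, Cks2 -0.34, Cenpa -0.067, Cdca3 -0.078 and Smc4 0.28 in CD8+ cells, Cks1b -0.028 and Cenpf 0.13 in cycling CD4+ cells and Cks1b -0.24, Cks2 -0.089, Cdc20 -0.16, Cenpf 0.25 and Anp32e 0.016 in cycling CD8+ cells. DESeq2 gave 5 rises in CD4+ C3, 4 falls in CD8+ C2 and 6 members higher in CD8+ cells at CSA 50 mg/kg. Without the filter 5 CD4+ members fell and 1 CD8+ member rose between doses. The shares of all genes called in these DESeq2 and unfiltered fits are not given here. In cycling cells only, 1 CD4+ and 3 CD8+ members were higher in expanded clonotypes, counts given without the share over all genes. The cause of these changes was not tested. The mean over cells of each cell's share was 65.98, 55.00 and 52.2 per 10000 in CD4+ and 106, 78.04 and 57.8 in CD8+ cells (saline, CSA 5 and 50 mg/kg), and without the 5 members of most UMIs the sums were 46.8, 33.5 and 36.2 and 71.7, 46.5 and 37.03. The share of cells with 20 or more member UMIs was 16.8, 15.5 and 17.8% of CD4+ and 40.4, 30.6 and 22.4% of CD8+ cells, with 5 or more 82.9, 63.01 and 43.2% and 90.2, 72.6 and 49.03%, and with 10 or more without thinning 64.3, 61.3 and 49.8% and 82.2, 79.96 and 59.6%. Leaving out 1 pool at a time gave 2 to 6 CD4+ falls and 0 to 3 CD8+ rises between doses, 5 to 8 rises and 1 to 3 falls in CD4+ C3, 0 to 1 rises in CD4+ C6, 3 to 7 falls in CD8+ C2, 0 to 2 falls in CD8+ C4, 4 to 22 members higher in CD8+ cells at CSA 50 mg/kg, and 0 to 1 higher and 0 to 4 lower for the interaction with CSA 5 mg/kg; in clusters and at CSA 50 mg/kg alone this was chosen after seeing the data. The interaction with CSA 50 mg/kg ranged from 42 to 51 members lower. Falls of CSA 5 mg/kg in CD4+ cells ranged from 22 to 30, and rises of CSA 50 mg/kg in CD8+ cells from 6 to 10. Hashtag numbers did not pair the pools: deviations of same-numbered pools correlated at -0.09 to 0.04 in CD4+ and -0.03 to 0.07 in CD8+ cells. With the replicate number as a block, 7 and 28, 14 and 25, and 18 and 3 CD4+ members were higher and lower at CSA 5 mg/kg, CSA 50 mg/kg and between doses, and 10 and 34, 8 and 39, and 0 and 37 in CD8+ cells. In cycling clusters the block gave 10 and 28, and 11 and 29 (CD4+) and 10 and 28, and 11 and 34 (CD8+). The shares of all genes called in the fits with a block and with a pool left out are not given here. Of the counts and levels with an alternative other than a left-out pool, 180 stayed within 1.5 times or 1 SD and 70 did not. The fit with TEa cells was made for CD4+ cells alone.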
